A study of Mus musculus with 4 samples.

Results

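The fibroblast growth factor (FGF) genes, their receptors and the genes that ERK signalling induces to restrain itself were described in cultured cortical astrocytes of the mouse. The members were the protein-coding genes with symbols of Fgf followed by a number, Fgfr1 to Fgfr4, Spry1 to Spry4 and Spred1 to Spred3, together with Fgfrl1, Fgfbp3, Dusp4, Dusp5, Dusp6, Etv1, Etv4 and Etv5. They were chosen by name and not by level, and came to 41 of the 45703 genes of the table, of which 21843 are protein-coding.

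The study profiled the calcium signalling components of these cells in 4 cultures that the series calls biological replicates, all of 1 group, so that no treatment or genotype was compared. The cells were glia dissected from the frontal cortex of wild-type mice of the outbred strain CD-1 at postnatal day 4. They were grown in medium with 10% FCS, 5% HS, B27 and 10 ng/ml EGF, itself an activator of ERK through another receptor, were reseeded at day 6 in vitro and spent the last 1 h before lysis in Ham's medium without serum. The labels give no sorting step, no number of animals per culture and no statement that the cultures came from separate preparations, so that the spread between them may be partly technical.

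FGFs are signalling proteins, most of them secreted, that bind receptor tyrosine kinases (FGFR1 to FGFR4) together with heparan sulfate chains on the cell surface. The activated receptor works through the adaptor FRS2 and the GTPase RAS to switch on the kinase ERK, and ERK induces its own inhibitors: the Sprouty and Spred proteins act above RAS or RAF, the DUSP phosphatases remove the activating phosphates from ERK, and the PEA3 transcription factors Etv1, Etv4 and Etv5 are common transcriptional readouts. In the cortex, FGF signals act on neural progenitors and astrocytes, and Fgfr3 is a known marker of the astrocyte lineage.

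The libraries held 37300485 to 42369109 counts, so that 1 count was 0.0236 to 0.0268 CPM (the count scaled to the library total). All 10 astrocyte markers were expressed, that is, at 1 CPM or more in every library, led per exon length by Slc1a3, Gfap and Aldoc. The astrocyte list includes Fgfr3, itself a member, so that it is not fully separate from the genes described here. Of other cell types, 6 of 9 neuronal, 6 of 9 oligodendrocyte lineage, 7 of 8 microglial, 5 of 7 fibroblast, 2 of 6 endothelial, 3 of 6 mural and 2 of 4 ependymal markers were expressed. Per exon length the leading markers were Stmn2, Map2 and Tubb3 of neurons, Olig1 and Olig2 of the oligodendrocyte lineage, C1qa, Csf1r and Cx3cr1 of microglia, and Col1a2, Fn1 and Col1a1 of fibroblasts. Those of the other types were Kdr and Flt1 of endothelium, Acta2, Pdgfrb and Rgs5 of mural cells, and Foxj1 and Rsph1 of ependyma. In RPKM, Acta2 was at 680.6, Olig1 at 603.6, Col1a2 at 124.8, Stmn2 at 77.6, Foxj1 at 68.6, C1qa at 24.6 and Kdr at 0.84. The markers Rbfox3, Snap25, Slc17a7, Sox10, Mog, Mag, Tmem119, Dcn, Lum, Pecam1, Cdh5, Tek, Cldn5, Des, Kcnj8, Abcc9, Ccdc153 and Tmem212 did not reach that level in every library. Of these, Tmem119 missed the level only in culture 4, with 3.12, 3.44, 3.54 and 0.76 CPM, and Mog, Cldn5 and Tmem212 had a mean of 0.0061, 0.0059 and 0.0062 CPM, at the level of single counts. Culture 4 stood apart from cultures 1 to 3, which resembled one another far more closely, and results that rest on it are given as values of a single library.

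The promoters of 5 members are shown: Etv5 and Dusp6 as known transcriptional readouts of ERK, Fgfrl1 as the most abundant member per length, Fgfbp3 for a Capicua octamer, and Fgf2 for its lower level in culture 4. Of the 41 members, 30 had an entry in the RefSeq promoter table (GRCm38.p6; 250 bases before to 50 after a transcript start). Fgfr1, Etv4, Dusp4, Fgf1, Spry3 and Spry4 are among the members with no entry. The lines below run 5′ to 3′ on the gene's strand, and capitals mark matches to the octamers searched on both strands.
Etv5, downstream start (chr16:22438319-22438618, minus strand): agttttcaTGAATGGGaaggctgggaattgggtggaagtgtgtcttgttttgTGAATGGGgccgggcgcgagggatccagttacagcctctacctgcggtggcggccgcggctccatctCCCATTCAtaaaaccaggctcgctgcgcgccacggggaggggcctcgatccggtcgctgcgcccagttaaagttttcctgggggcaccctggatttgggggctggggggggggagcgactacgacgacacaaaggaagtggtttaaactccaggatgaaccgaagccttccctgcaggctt
Dusp6 (chr10:99262981-99263280, plus strand): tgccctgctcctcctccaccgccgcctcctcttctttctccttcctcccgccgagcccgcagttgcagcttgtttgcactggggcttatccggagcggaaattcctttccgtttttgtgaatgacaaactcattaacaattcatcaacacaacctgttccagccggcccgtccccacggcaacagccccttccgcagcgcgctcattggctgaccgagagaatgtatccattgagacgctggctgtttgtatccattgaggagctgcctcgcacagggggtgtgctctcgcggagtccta
Fgfrl1 (chr5:108693979-108694278, plus strand): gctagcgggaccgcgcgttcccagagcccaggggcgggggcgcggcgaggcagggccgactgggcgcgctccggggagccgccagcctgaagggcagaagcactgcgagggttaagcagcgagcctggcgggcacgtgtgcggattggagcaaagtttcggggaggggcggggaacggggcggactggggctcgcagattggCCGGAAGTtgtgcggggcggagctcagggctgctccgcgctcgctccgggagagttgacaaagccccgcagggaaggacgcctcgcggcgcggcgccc
Fgfbp3 (chr19:36919550-36919849, minus strand): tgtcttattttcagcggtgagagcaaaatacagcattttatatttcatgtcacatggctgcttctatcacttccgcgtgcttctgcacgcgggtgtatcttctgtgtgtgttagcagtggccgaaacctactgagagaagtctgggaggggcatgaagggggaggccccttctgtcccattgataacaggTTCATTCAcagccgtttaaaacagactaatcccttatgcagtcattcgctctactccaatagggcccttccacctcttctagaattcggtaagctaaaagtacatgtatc
Fgf2 (chr3:37348403-37348702, plus strand): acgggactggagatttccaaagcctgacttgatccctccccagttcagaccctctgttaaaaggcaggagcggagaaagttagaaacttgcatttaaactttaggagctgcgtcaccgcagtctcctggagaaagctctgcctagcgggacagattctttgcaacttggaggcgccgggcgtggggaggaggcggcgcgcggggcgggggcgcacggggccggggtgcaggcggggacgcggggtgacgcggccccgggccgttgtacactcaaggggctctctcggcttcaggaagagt

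The capitals in Fgfrl1 mark the ETS octamer CCGGAAGT, whose letters the PEA3 factors and other ETS proteins can bind, and which 3.89% of all 32851 promoters in the table held. Fgfrl1 was the 1 member with it. The capitals in Fgfbp3 mark TGAATGAA on the opposite strand. That octamer and TGAATGGA are bound by Capicua, a repressor that ERK inactivates. Either was held by 2.47% of all promoters and by 4 of 39 member promoters, those of Fgf21, Fgf23, Fgfbp3 and Spred3. This difference was not tested, and Fgf21 and Fgf23 were not expressed. The cyclic AMP response octamer TGACGTCA (1.79% of all promoters) was in no member's window, and the AP-1 heptamer TGACTCA (5.2%) was in 1, that of Fgf12. The downstream start of Etv5 held 3 copies of TGAATGGG, at bases -242 to -235, -198 to -191 and, on the opposite strand, -131 to -124 from the start. This octamer resembles those of Capicua and was chosen after the Etv5 sequence had been read. It was in 1.08% of all promoters, and this window was the 1 promoter of the table with 3 copies or more. Because the word was taken from this window, its rarity elsewhere is no evidence about Etv5. The upstream start of Etv5 (chr16:22439521-22439820) held 0 copies. Neither the Dusp6 nor the Fgf2 window held any of the words searched. For Capicua only TGAATGAA and TGAATGGA were searched, besides TGAATGGG, so that other variants of these octamers were not counted in any window. A match is of letters only and shows no binding, and a window without one says nothing of the factor.

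Of the 41 members, 24 were expressed, or 58.5%, beside 58.1% of all protein-coding genes, so that the share of members expressed was that of the background. The expressed members were unevenly spread over the roles. All 4 intracellular FGFs, 4 of 4 Sprouty, 3 of 3 Spred, 3 of 3 DUSP and 3 of 3 PEA3 genes and Fgfbp3 were expressed, as were 4 of 5 receptor genes, but only 2 of 18 genes for secreted ligands. Levels are given below in CPM, and levels of different genes are compared as RPKM, the CPM per kilobase of the gene's combined exon length (mean ± SD, n = 4).

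**Figure D1:**
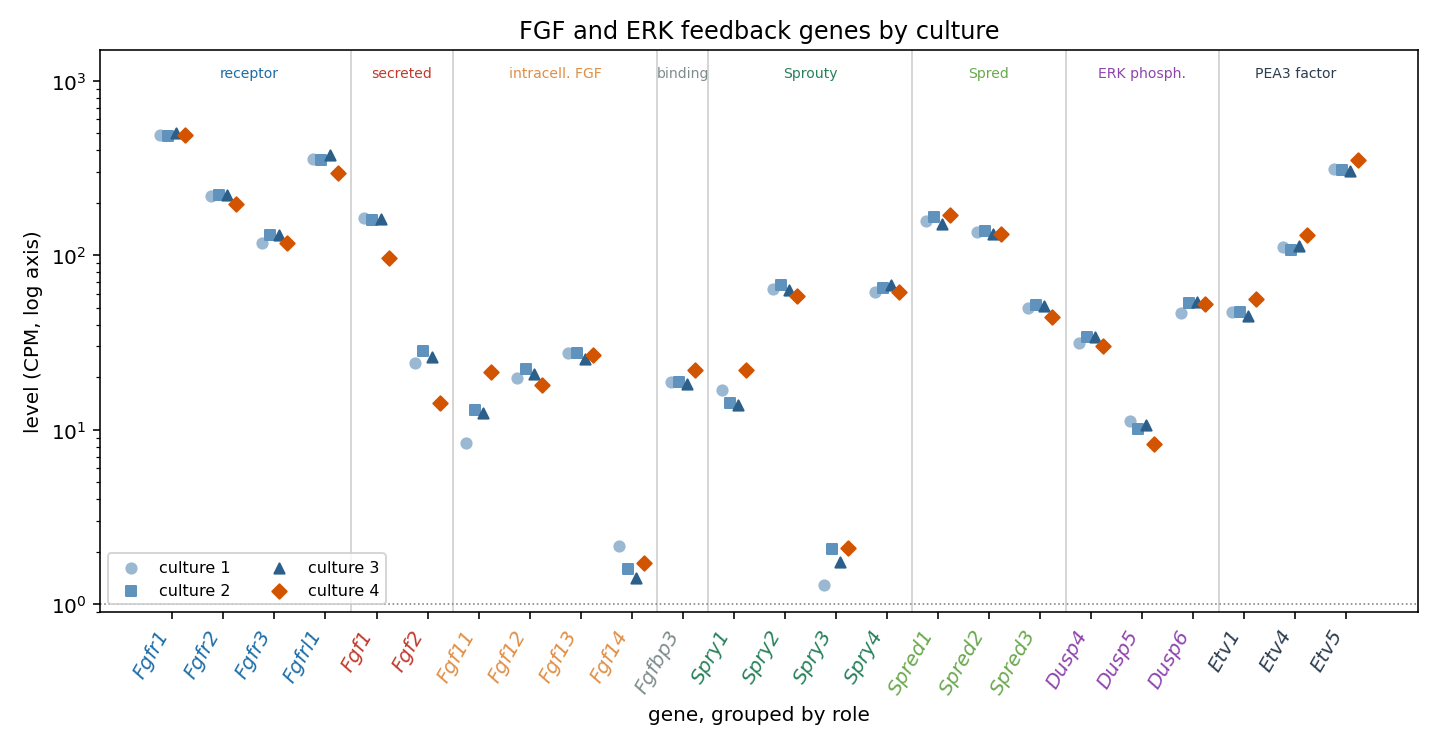
Level of each of the 24 expressed members in each culture, in CPM on a log axis, grouped by role. Points are single libraries, the dotted line marks 1 CPM, and culture 4 (orange) lies below the other 3 for Fgf1 and Fgf2 and above them for Fgf11.

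Of the 4 signalling receptors, 3 were transcribed at high levels, in the order Fgfr1, Fgfr2, Fgfr3, and Fgfr4 was close to silent. Fgfr1 (GeneID 14182; chromosome 8, 25518759 to 25575718, plus strand) was at 486.0, 481.2, 502.7 and 489.0 CPM in cultures 1 to 4. Fgfr2 (chromosome 7, 130162451 to 130266808, minus strand) was at 219.0, 222.1, 222.9 and 195.6 CPM, and Fgfr3 (chromosome 5, 33721724 to 33737068, plus strand) at 118.2, 129.8, 130.4 and 118.0 CPM. The 4 values of each gene lay close together, and per length the libraries of the 3 genes did not overlap. Per length the levels were 97.5 ± 1.83 RPKM for Fgfr1, 40.2 ± 2.43 RPKM for Fgfr2 and 27.2 ± 1.52 RPKM for Fgfr3. Fgfr1 exceeded 97.1% of protein-coding genes in RPKM.

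The ratio of Fgfr1 to Fgfr2 was 2.43-fold (log2 ratio 1.28 ± 0.044, SE, with the same direction in 4 of 4 libraries; adjusted p = 1.77e-07 by edgeR). Fgfr2 was 1.48-fold above Fgfr3 (log2 ratio 0.56 ± 0.039, SE; 4 of 4 libraries; edgeR, adjusted p = 8.2e-06). This quasi-likelihood test, with p-values adjusted by the Benjamini-Hochberg method, was run on 17414 pairs of expressed genes that share a symbol root, and 94.4% of all pairs passed, so that a call says only that 2 levels are told apart. Of 33 pairs of members 29 passed, or 87.9%. Fgfr1 made up 59.0% ± 1.33 of the summed RPKM of the 4 signalling receptors, Fgfr2 24.3% ± 1.01, Fgfr3 16.5% ± 0.58 and Fgfr4 0.143% ± 0.044.

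Fgfr4 (chromosome 13) had 127 counts in all, at 0.56, 1.07, 0.97 and 0.59 CPM in cultures 1 to 4, below the minimum in 3 of 4 libraries. Fgfrl1 (chromosome 5, 108694229 to 108706950, plus strand), a receptor relative that binds FGFs and lacks the tyrosine kinase domain, was the most abundant member per length. It was at 354.4, 353.2, 375.8 and 297.9 CPM, lowest in culture 4, and its 130.0 ± 12.5 RPKM exceeded 98% of protein-coding genes. With Fgfrl1 counted in, it held 44.0% ± 1.87 of the RPKM of the 5 receptor genes and Fgfr1 33.1% ± 1.79. These 2 genes carry different symbol roots and were not tested as a pair, but the lowest library of Fgfrl1, at 112.2 RPKM, lay above every library of Fgfr1. The counts of Fgfr2 and Fgfrl1 included fractions of reads, as did those of Fgf13, Spry4, Spred1, Spred2, Etv1 and Etv5. How these reads were shared out is not known, and the levels carry that uncertainty.

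Among the 18 secreted ligands only Fgf1 and Fgf2 were expressed. Both proteins lack a classical signal peptide and leave the cell by an unconventional route, and FGF1 can activate all 4 receptors. Fgf1 was at 164.3, 160.0, 160.8 and 96.8 CPM in cultures 1 to 4. Fgf2 (chromosome 3, 37348477 to 37410106, plus strand), whose promoter is printed above, was at 24.3, 28.2, 26.2 and 14.1 CPM. For both genes cultures 1 to 3 lay together and culture 4 lay below all of them. Fgf1 held 67.8% ± 2.08 of the summed RPKM of the 18 ligand genes and Fgf2 24.0% ± 2.10. With GENCODE lengths the shares were 87.0% ± 1.26 and 9.18% ± 0.83. The sum over the ligand genes was 191.4, 191.2, 190.1 and 114.2 CPM in the 4 cultures.

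Per length, Fgf1 was at 10.5 ± 2.35 RPKM and Fgf2 at 3.75 ± 1.01 RPKM, a 2.83-fold ratio (log2 ratio 1.501 ± 0.056, SE; 4 of 4 libraries; edgeR, adjusted p = 2.83e-07). The log2 ratio was 1.598, 1.35, 1.45 and 1.61 in cultures 1 to 4. The deposited exon length of Fgf1 is 13815 bases, while its longest GENCODE transcript has 3983, and with GENCODE lengths the ratio was 9.49-fold (edgeR, adjusted p = 1.16e-08). Fgf1 overlaps Arhgap26 and Gm5820 on the opposite strand, and Fgf2 overlaps Nudt6, at 5.13 CPM, on the opposite strand. The kit marks strand, but no source used here says whether counting did, so that reads of these partners cannot be told apart.

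The remaining 16 ligand genes had 0 to 132 counts over the 4 libraries. Fgf4 and Fgf6 had none, and Fgf3, Fgf16, Fgf17, Fgf20 and Fgf21 had 1 to 3 in all. A count of 0 in a library allows a level of up to 0.0708 to 0.0804 CPM at these depths. Fgf8, an organiser of the embryonic forebrain, had 4 counts, Fgf5 had 8, Fgf15 had 9 and Fgf22, a synaptic organiser, had 15. Fgf9, a glia-activating factor made mainly by neurons, had 46 counts, or 0.28 ± 0.052 CPM, and Fgf23, a hormone of phosphate balance, had 68. Fgf7, Fgf18 and Fgf10 were nearest to the minimum, at 0.82 ± 0.13, 0.65 ± 0.13 and 0.60 ± 0.24 CPM. Fgf10, a ligand made by mesenchymal cells in many organs, was at 0.80, 0.70, 0.64 and 0.26 CPM in cultures 1 to 4, from 33, 28, 24 and 11 counts. With a minimum of 0.5 CPM, Fgf7, Fgf18 and Fgfr4 were added and 27 of the 41 members were expressed, beside 61.1% of all protein-coding genes.

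Fgf11 to Fgf14 encode FGF homologous factors, which stay inside the cell and bind voltage-gated sodium channels. Fgf13 (chromosome X) was at 27.4, 27.4, 25.4 and 26.7 CPM, Fgf12 (chromosome 16) at 19.9, 22.2, 20.9 and 18.1 CPM, and Fgf14 (chromosome 14) at 2.17, 1.596, 1.42 and 1.72 CPM. None of these 3 stood apart in culture 4. Fgf14 overlaps Itgbl1, which at 10.9 CPM was the more abundant gene, on the opposite strand. Fgf11 (chromosome 11, 69796068 to 69802944, minus strand) was at 8.40, 12.9, 12.5 and 21.5 CPM, lowest in culture 1 and highest in culture 4. Its share of the summed RPKM of the 4 genes was 27.0%, 35.3%, 36.1% and 50.2% in that order.

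The order of Fgf11, Fgf12 and Fgf13 was not settled by the data. Their levels were 3.31 ± 1.32, 2.40 ± 0.21 and 2.87 ± 0.099 RPKM. Fgf13 was 1.20-fold above Fgf12 (edgeR, adjusted p = 0.00785). Fgf11 was not told apart from Fgf12 (log2 ratio 0.40 ± 0.23, SE; 3 of 4 libraries; edgeR, adjusted p = 0.134) or from Fgf13 (log2 ratio 0.14 ± 0.21, SE; 3 of 4 libraries; edgeR, adjusted p = 0.533). Without culture 1, Fgf11 over Fgf12 passed (log2 ratio 0.60; edgeR, adjusted p = 0.0494). With GENCODE lengths Fgf13 was 2.46-fold above Fgf11 (edgeR, adjusted p = 0.000842) and 2.19-fold above Fgf12 (edgeR, adjusted p = 3.53e-06). With cultures 1 to 3 summed as 1 sample, Fgf13 over Fgf12 no longer passed (edgeR, adjusted p = 0.07). Fgf14 was lowest under every length, 21.2-fold below Fgf12 (edgeR, adjusted p = 9.94e-08) with the deposited lengths and 10.2-fold below it with GENCODE lengths (edgeR, adjusted p = 3.93e-07). The secreted Fgf2 was 1.52-fold above Fgf12 (edgeR, adjusted p = 0.00309) but was not told apart from Fgf11 or Fgf13 (edgeR, adjusted p = 0.553 and 0.0826). Without culture 4 it was above both, with log2 ratios of 0.66 and 0.56 (edgeR, adjusted p = 1.86e-07 and 2.48e-08). Those p-values rest on the small spread among cultures 1 to 3, which may be partly technical. With these cultures summed as 1 sample, Fgf2 over Fgf11 and over Fgf13 had log2 ratios of -0.23 and 0.13 (edgeR, adjusted p = 0.646 and 0.626). With GENCODE lengths Fgf2 was below Fgf12 and Fgf13 (edgeR, adjusted p = 0.0267 and 0.000115).

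Fgfbp3, a secreted carrier that releases FGFs from the matrix, was at 18.7, 18.9, 18.3 and 21.9 CPM (11.1 ± 0.96 RPKM), highest in culture 4.

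**Figure D2:**
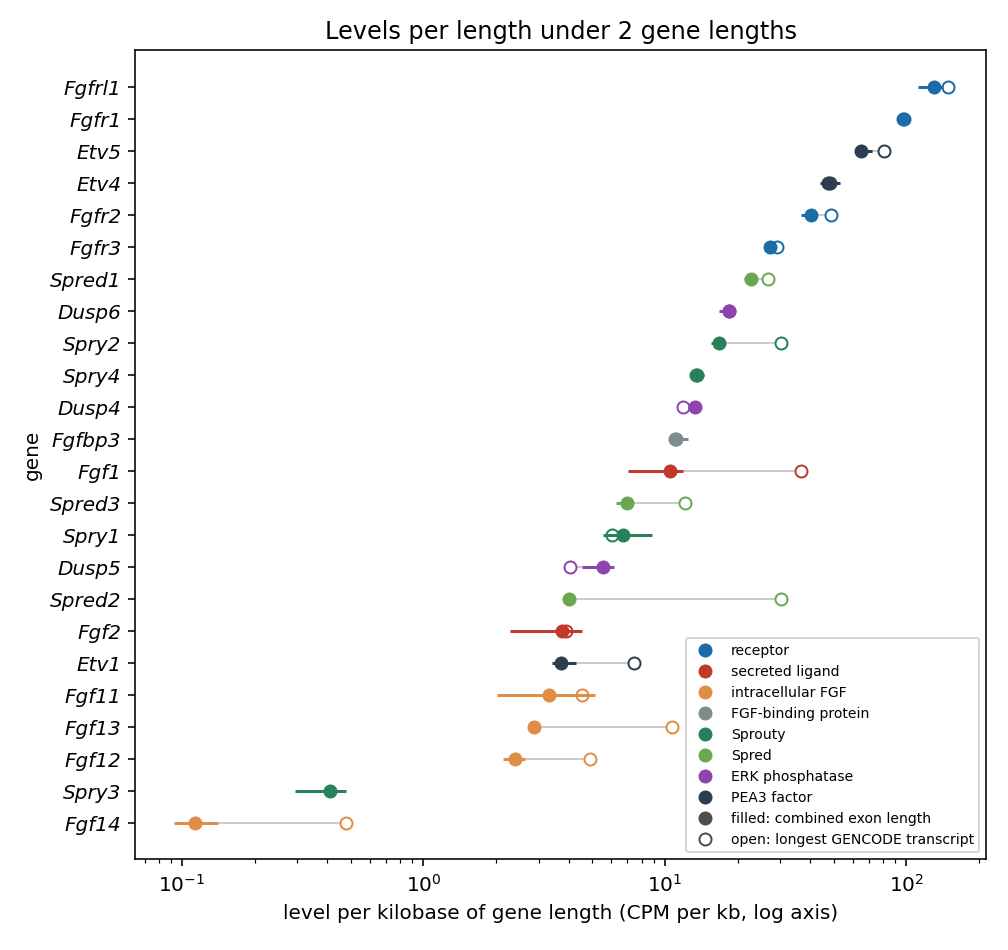
Mean level per kilobase of each expressed member on a log axis, with the deposited combined exon length (filled; bars span the lowest to the highest of the 4 cultures) and with the longest GENCODE transcript (open; Spry3 has no value). Spred2 moves from 3.99 to 30.3 and Fgf1 from 10.5 to 36.5, while Fgfr1, Dusp6 and Spry4 hardly move.

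Sprouty proteins are induced by receptor tyrosine kinases and restrain signalling to ERK. Spry2 (chromosome 14) was at 64.2, 67.1, 63.3 and 58.4 CPM and Spry4 at 61.6, 64.5, 67.9 and 61.2 CPM. The values of both genes were flat across the cultures. Spry1 (chromosome 3) was at 16.9, 14.2, 13.8 and 22.04 CPM, highest in culture 4, and Spry3, which the table places on a scaffold that RefSeq assigns to chromosome X, was at 1.29 to 2.10 CPM.

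Per length, Spry2 (16.8 ± 0.96 RPKM) was 1.23-fold above Spry4 (13.6 ± 0.66 RPKM; edgeR, adjusted p = 0.000478; 4 of 4 libraries). Without the length term their log2 ratio was -0.013 (edgeR, adjusted p = 0.781), and with GENCODE lengths Spry2 was 2.26-fold above Spry4 (edgeR, adjusted p = 2.96e-07). Spry4 was 2.05-fold above Spry1 (edgeR, adjusted p = 0.000268), and Spry1 16.3-fold above Spry3 (edgeR, adjusted p = 3.97e-07).

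Spred proteins carry a Sprouty-like domain and recruit neurofibromin, the RAS GTPase activator encoded by Nf1. Spred1 (chromosome 2) was at 157.8, 164.6, 151.1 and 169.1 CPM, Spred2 (chromosome 11) at 136.0, 138.6, 132.9 and 132.5 CPM and Spred3 (chromosome 7) at 50.1, 52.1, 51.1 and 44.2 CPM. The order of these genes depended on the length used. With the deposited length, 33833 bases for Spred2 against 7087 for Spred1, Spred1 was 5.68-fold above Spred2 (edgeR, adjusted p = 7e-09) and Spred3 1.75-fold above Spred2 (edgeR, adjusted p = 2.57e-06). With the longest GENCODE transcripts, 4449 and 6016 bases, Spred2 was 1.14-fold above Spred1 (edgeR, adjusted p = 0.0036) and 2.50-fold above Spred3 (edgeR, adjusted p = 2.09e-07). Spred1 was above Spred3 under both lengths, with log2 ratios of 1.70 (edgeR, adjusted p = 3.33e-07) and 1.13 (edgeR, adjusted p = 3.01e-06). Spred3 overlaps Ggn, at 4.00 CPM, on the opposite strand.

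The DUSP genes of the set encode phosphatases of ERK, cytoplasmic in the case of Dusp6 and nuclear for Dusp4 and Dusp5. Dusp6 (chromosome 10, 99263231 to 99267489, plus strand) was at 46.8, 53.2, 54.1 and 52.8 CPM, Dusp4 (chromosome 8) at 31.3, 34.2, 34.0 and 30.4 CPM and Dusp5 (chromosome 19) at 11.2, 10.0, 10.7 and 8.26 CPM. Per length Dusp6 (18.5 ± 1.20 RPKM) was 1.38-fold above Dusp4 (13.4 ± 0.79 RPKM; edgeR, adjusted p = 7.63e-05), and Dusp4 was 2.43-fold above Dusp5 (5.53 ± 0.71 RPKM; edgeR, adjusted p = 3.76e-06). This order was the same with GENCODE lengths and without the length term. Of the other dual-specificity phosphatases of ERK, Dusp1 (8.40 RPKM) and Dusp7 (2.94 RPKM) were expressed, and Dusp2 and Dusp9 were not.

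Per length, Etv5 and Etv4 were the most abundant of the feedback genes, and Etv1, the third PEA3 factor, was among the lower ones. Etv5 (GeneID 104156; chromosome 16, 22381313 to 22439570, minus strand) was at 312.3, 308.1, 306.0 and 353.5 CPM, Etv4 (chromosome 11) at 111.6, 107.7, 112.3 and 130.2 CPM and Etv1 (chromosome 12) at 47.3, 47.4, 44.7 and 56.1 CPM. Culture 4 was the highest library for all 3. Per length they stood at 65.0 ± 4.57, 47.2 ± 4.09 and 3.72 ± 0.38 RPKM, and Etv5 exceeded 95.2% of protein-coding genes. Etv5 was 1.38-fold above Etv4 (edgeR, adjusted p = 8.64e-06), and Etv4 was 12.7-fold above Etv1 (edgeR, adjusted p = 2.14e-09), a fold that GENCODE lengths put at 6.49 (edgeR, adjusted p = 6.1e-09). Leaving out the length term put it at 2.36 (edgeR, adjusted p = 1.4e-07). Their proportions barely moved between cultures: Etv5 held 55.6% to 56.8% of the summed RPKM of the 3 genes, Etv4 39.9% to 41.1% and Etv1 3.06% to 3.30%.

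The rest of the pathway was read from 8 lists written by hand, of which 97 of 113 genes in the table were expressed. Anos1 was listed but not analysed here. Of 10 receptor partners 6 were expressed, led by the adhesion molecules Cdh2 (84.7 RPKM) and Ncam1 (30.8 RPKM) and by Flrt2 (2.96 RPKM). Kl and Klb, the Klotho co-receptors of the hormone-like FGFs, were at 0.036 and 0.074 CPM, and Fgfbp1 and L1cam were also below the minimum. All 12 heparan sulfate proteoglycans were expressed, led by Sdc4 (92.6 RPKM), Gpc4 (91.2 RPKM) and Sdc3 (66.6 RPKM). Of 24 enzymes of heparan sulfate 18 were expressed, led by Sulf2 (95.7 RPKM), an extracellular sulfatase, the chain polymerase subunit Ext1 (47.5 RPKM) and the sulfotransferase Hs6st1 (35.4 RPKM). The others, Hpse, Ndst4, Hs3st2, Hs3st4, Hs3st5 and Hs3st6, were not.

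From receptor to nucleus nearly every step had expressed genes. Of 18 adaptors 17 were expressed, led by the phosphatase Ptpn11 (38.9 RPKM), Grb2 (28.8 RPKM) and Crk (27.8 RPKM), and only Shc2 was not, at 0.91 CPM. The FGF receptor adaptor Frs2 was at 7.01 ± 0.11 RPKM. Of 19 genes of the RAS-ERK cascade 18 were expressed, with Ksr2 as the exception. Mapk3, which encodes a form of ERK itself, and the GTPase gene Rras were at 60.0 and 50.5 RPKM. Of 7 RAS GTPase activators 6 were expressed, led by Rasa3 (61.9 RPKM), Rasa1 (10.6 RPKM) and Rasal2 (7.93 RPKM), and Rasal1 was not. Of 19 transcription factors and early genes linked to ERK 18 were expressed, led by Ccnd1 (565.6 RPKM), Junb (29.1 RPKM) and Fos (18.8 RPKM), and Egr3 was not. Many of these lists hold ubiquitous genes, so that their counts are not particular to the FGF pathway.

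Culture 4 differed most from the other cultures in Fgf1, Fgf2 and Fgf11 among the expressed members. Among the 24 expressed members, Fgf2 was 1.85-fold and Fgf1 1.67-fold lower in culture 4 than the mean of cultures 1 to 3, and Fgf11 was 1.91-fold higher. These 3 of the 24 were past 1.5-fold, 2 lower and 1 higher. Of 15217 genes with a mean of at least 1 CPM, 5.74% were lower by that much and 2.39% were higher. Counts of members this small are not read as a departure from those shares. Spry1, at 1.47-fold higher, lay just inside. The median log2 difference was -0.020 over the members and 0.033 over all genes, with 9 members above 0 and 15 below. This is 1 library against 3 that resemble each other, and no test was made.

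**Figure D3:**
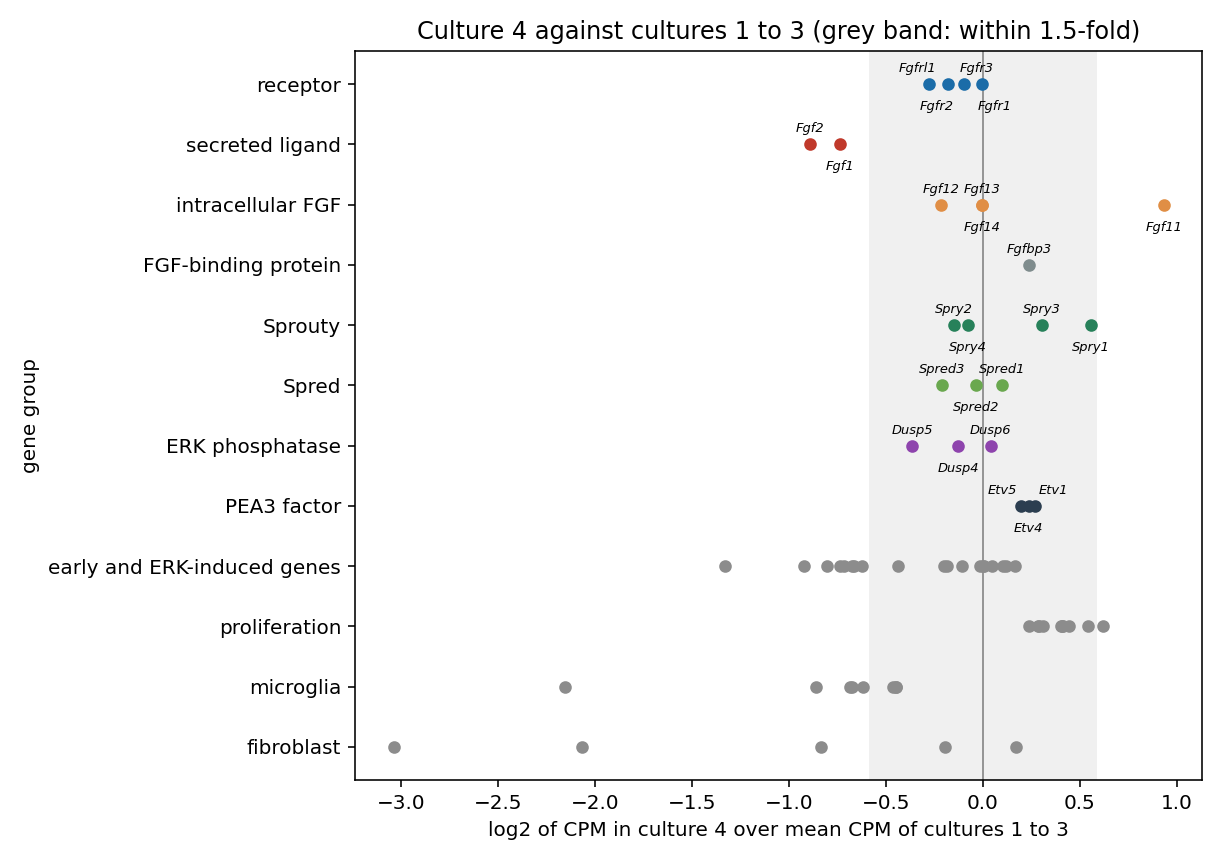
Difference of culture 4 from the mean of cultures 1 to 3 (log2 of CPM) for expressed members by role and, in grey, for genes of 4 other lists with a mean of at least 1 CPM. Fgf1, Fgf2 and Fgf11 lie outside the grey band of 1.5-fold, and the receptors, Spreds, DUSPs and PEA3 factors lie inside it.

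The feedback genes differed in both directions in culture 4, all by less than 1.5-fold, and this was not tested. The 3 PEA3 genes were higher, 1.15-fold for Etv5, 1.18-fold for Etv4 and 1.21-fold for Etv1, while Dusp5 and Dusp4 were 1.29-fold and 1.09-fold lower and Dusp6 was 1.03-fold higher. Spry1, Spry3 and Spred1 were 1.47-fold, 1.235-fold and 1.07-fold higher. Spry2, Spry4, Spred2 and Spred3 were 1.11-fold, 1.06-fold, 1.025-fold and 1.16-fold lower. Of 19 early and ERK-induced genes, 14 were lower in culture 4 and 8 were lower by more than 1.5-fold: Fos, Fosl1, Fosl2, Junb, Egr1, Egr2, Egr3 and Ier3. Egr1 was at 43.9, 47.6, 42.5 and 29.0 CPM in cultures 1 to 4, and Fos at 47.7, 47.3, 35.9 and 27.5 CPM. Of the heparan sulfate enzymes, Hs6st2 was higher and Sulf2, Ndst4 and Hs3st3a1 were lower by more than 1.5-fold, with Sulf2 at 488.2, 482.9, 490.2 and 289.4 CPM. In the other 6 lists of the pathway no gene with a mean of at least 1 CPM passed 1.5-fold.

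Markers of other cells and states also differed in culture 4. The 7 fibroblast markers summed to 2099 to 2255 CPM in cultures 1 to 3 and to 1191 CPM in culture 4, with Col1a1 at 570.1 to 622.6 and 72.4 CPM, while Dcn and Lum had means of 0.79 and 0.22 CPM. The 8 microglial markers summed to 107.2 to 114.4 and 70.4 CPM, the 6 endothelial markers to 13.5 to 14.5 and 7.62 CPM, and the 10 astrocyte markers to 7450 to 7629 and 6432 CPM. Of the astrocyte markers 6 were lower, with Gfap at 1498 to 1555 and 779.7 CPM and S100b at 12.7 to 14.5 and 6.11 CPM, and 4 were higher. The neuronal markers summed to 408.4 to 424.2 and 395.2 CPM, those of the oligodendrocyte lineage to 1548 to 1597 and 1701 CPM, the mural markers to 1892 to 2011 and 1977 CPM, and the ependymal markers to 199.9 to 219.8 and 204.1 CPM. Abundant genes carry these sums, and single markers differed more. Of 6 expressed neuronal markers 5 were lower, with Tubb3 at 18.9 to 20.7 and 7.53 CPM, while Gad2 was at 1.61 to 2.07 and 3.46 CPM. Pdgfra, of the oligodendrocyte lineage, was at 12.03 to 13.5 and 20.5 CPM. Of the mural markers Acta2 was at 1851 to 1973 and 1950 CPM, but Pdgfrb was at 30.4 to 31.4 and 20.9 CPM and Rgs5 at 7.40 to 8.95 and 5.10 CPM. All 10 proliferation genes, led per exon length by Top2a, Plk1 and Ccnb1, were higher, with a sum of 1590 to 1617 and 2135 CPM. The part of these differences in the values of Fgf1, Fgf2 and Fgf11 was not tested. In bulk RNA, fewer cells of a type and less RNA per cell cannot be told apart.

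Over the 4 cultures Fgf1, Fgf2, Fgf11 and Spry1 varied more than most genes of their level, and Fgfr1 varied less than most. The biological coefficient of variation (BCV), the relative spread beyond counting noise, was 0.061 for Fgfr1, and 13.8% of the 500 genes nearest in level had a lower one. It was 0.276 for Fgf11, 0.189 for Fgf1, 0.226 for Fgf2 and 0.163 for Spry1, above 99.4%, 98.2%, 98.0% and 95.2% of such genes. Fgf10, near the minimum, had 0.299, above 95.0%. Culture 4 was the lowest library for Fgf1, Fgf2 and Fgf10 and the highest for Fgf11 and Spry1. These ranks are therefore not separate from the differences of that library, and ranks of single genes without it are not given. The median BCV of the 24 expressed members was 0.082, beside 0.087 for all genes of at least 1 CPM on average, and without culture 4 the medians were 0.028 and 0.026.

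**Figure D4:**
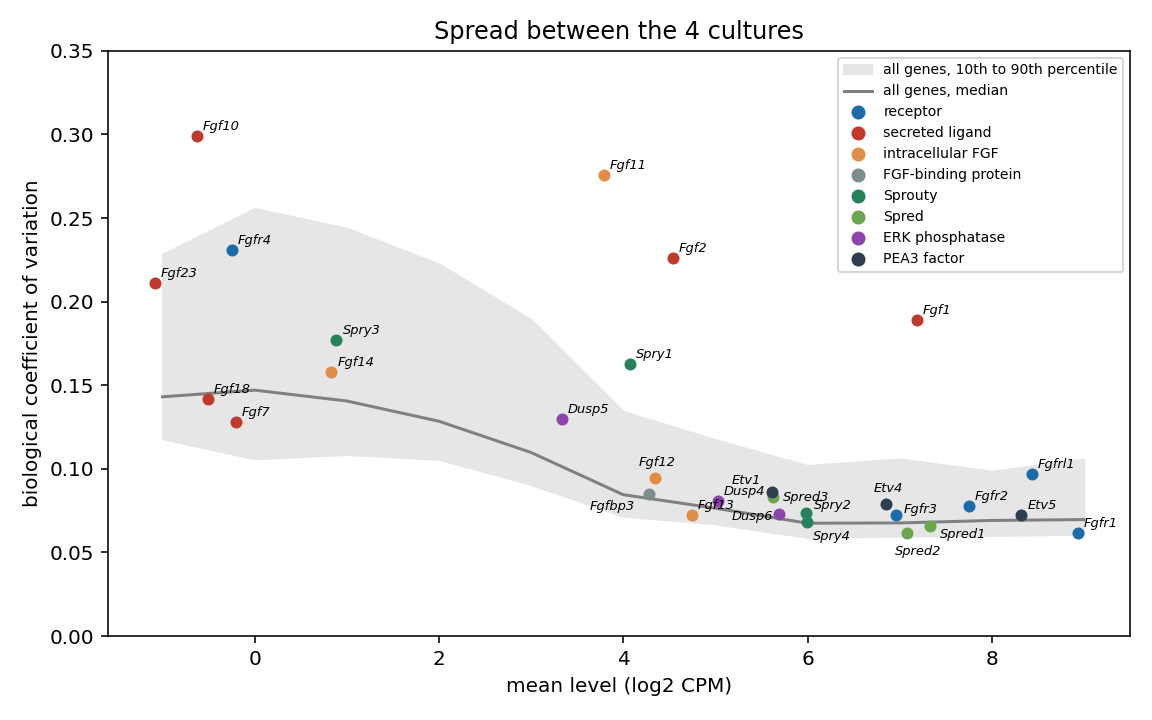
BCV of 29 members that passed the filter on low counts against their mean level (log2 CPM), with the median (line) and the 10th to 90th percentile (band) of all 17113 genes. Fgf11, Fgf2, Fgf1, Spry1 and Fgf10 lie above the band, and Fgfr1 has the lowest BCV of the members.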

How the data were processed

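Poly-A RNA of 4 cultures was sequenced from stranded libraries made from 500 ng of total RNA with 14 PCR cycles, per the labels' protocols. The authors deposited 1 table of estimated counts per RefSeq gene, with combined exon lengths, and 31.7% of its values above 0 are not whole. The submitters' processing notes name cutadapt 1.17, STAR 2.7.2b, featureCounts 1.6.4 and the build GRCm38.p6, with no role or setting. CPM, RPKM and TPM were computed here from the deposited estimated counts and raw library sums. Genes that reached 1 CPM in all 4 libraries were called expressed. The limit that a count of 0 allows was 3 counts per library and covers counting error only, since PCR reads are not independent molecules.

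Levels within gene families were tested in edgeR 4.0.16 (quasi-likelihood, two-sided, threshold 0.05) on counts rounded to whole numbers. Each feature was a pair of expressed protein-coding genes with the same letters before their number, in 1489 families of at most 30 genes, with an offset of log library size times exon length and terms for library and gene. P-values were adjusted by the Benjamini-Hochberg method over all 17414 pairs, which share genes and are not independent. The SE was calculated back from the F statistic. BCV came from edgeR with TMM, an intercept-only design and the default filter. Both fits were also run on simulated counts with independent libraries and the same BCV for all genes. That setting lacks the closeness of cultures 1 to 3, so it cannot show that the p-values hold here. Other settings were DESeq2 1.42.0, GENCODE longest-transcript lengths, no length term, no filter, TPM, other scalings, each culture left out, and cultures 1 to 3 summed.

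Every member with a mean of at least 1 CPM is named, as are the 3 genes highest in RPKM of each pathway or marker list and those not expressed, except 2 genes that are not reported here. Members and lists were chosen with earlier results of these data known. All 41 members had RefSeq's coordinates, and 40 a GENCODE length.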

Additional observations from a re-analysis of the deposited data

Results flagged for a closer look

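In 4 of the 24 expressed members, 1 library lay further from the other 3 than Dixon's 95% critical value for 4 samples allows, and in each it was culture 4. Fgf1 was at 96.8 CPM in culture 4, Fgfr2 at 195.6 CPM, Etv5 at 353.5 CPM and Fgfbp3 at 21.9 CPM, the first pair below the other cultures and the second pair above them. The gap was 0.937, 0.854, 0.868 and 0.838 of the range in this order. Chance flags about 1 in 20 groups of samples, but 15.2% of all 15217 genes with a mean of at least 1 CPM lay past the value, 91.2% of them through culture 4, so that the 16.7% among members was that of the table. Fgf2 and Fgf11, whose differences in culture 4 were larger, did not pass it.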

How the results depend on the processing

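The number of expressed members was 24 with TMM scaling, DESeq2 size factors, each culture left out and cultures 1 to 3 summed, 27 at 0.5 CPM and 22 with TPM, where Fgf14 and Spry3 dropped out. The share of all protein-coding genes was 58.1% to 59.1% in the settings with 24, 61.1% at 0.5 CPM and 56.6% with TPM. The test by pairs called 27 to 31 of 33 member pairs in the settings with the deposited lengths and the 1 CPM filter (edgeR), 29 with DESeq2, and 28 of 30 with GENCODE lengths. Over all pairs the share called was 88% to 96.1% in the first settings, 93.9% with DESeq2 and 93.6% with GENCODE lengths. Without the filter on low counts the test called 169 of 211 member pairs, or 80.1%, beside 90.5% of all 22235 pairs. Leaving out 1 culture moved the median BCV of expressed members from 0.082 to between 0.028 and 0.099, the lowest without culture 4. At 2-fold in place of 1.5-fold, 0 of the 24 expressed members differed in culture 4, a count that leaves out Fgf10, below the minimum. Of 15217 genes, 1.89% were lower and 0.598% higher by that much, and the count of 0 is not read as a departure from those shares.

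Gene length mattered most for the order of levels. Directions of log2 ratios that turned without the length term were Fgf11 over Fgf12 (-0.62), Fgf11 over Fgf13 (-1.02), Fgf13 over Fgf2 (0.24), Spred2 over Spred3 (1.45) and Spry2 over Spry4 (-0.013). With GENCODE lengths they were Fgf11 over Fgf12 (-0.17), Fgf11 over Fgf13 (-1.30), Fgf11 over Fgf2 (0.19), Fgf12 over Fgf2 (0.37), Fgf13 over Fgf2 (1.502), Spred1 over Spred2 (-0.19) and Spred2 over Spred3 (1.32). Fgf11 over Fgf2 was -0.22 with all cultures, 0.23 with cultures 1 to 3 summed, and -0.66 to 0.029 with 1 culture left out. Fgf11 over Fgf13 was -0.10 to 0.36 with 1 culture left out. With cultures 1 to 3 summed, Fgf2 over Fgf12 and Fgf13 over Fgf12 no longer passed (edgeR, adjusted p = 0.0877 and 0.07). The test by pairs compared 2 genes within each library. No comparison of groups, paired or not, was possible because all samples belong to 1 group.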
